A study of Homo sapiens with 16 samples.

Results

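The genes described here are 40 genes of epithelial cell contacts: 6 of the adherens junction (with EPCAM, an epithelial adhesion protein), 14 of the tight junction, 10 of the desmosome, 6 keratins and 4 surface proteases or their inhibitors. They were chosen by symbol from a list of names, among the 20851 genes named in the tables of PC9, a lung cancer line, and MDA231, a breast cancer line. RNA was sequenced from 16 libraries, 2 in each of 4 groups per line. The parental groups are the cell line with no hairpin. The other 3 groups of a line are LeptoM, a derivative that grows as metastases in the leptomeninges, the membranes around the brain. They carry a control hairpin (shCTL) or 1 of 2 lentiviral hairpins against LCN2 (shLCN2_1 and shLCN2_2), which encodes lipocalin-2, a secreted iron-binding protein. LeptoM and parental cells thus differ in a hairpin vector as well as in their origin, and these effects cannot be told apart. The labels do not say whether the 2 libraries of a group were separate cultures, so every p-value measures only how far these libraries lie apart, which can be technical. Each value is a gene's read count scaled by the size factor of its library, and a gene was tested in a table where its mean over the 8 libraries was at least 10.

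Epithelial cells hold on to each other through 3 kinds of contact. In the adherens junction, cadherins bind across the gap between cells and catenins tie them to actin. In the tight junction, claudins and occludin seal the gap and the ZO scaffold proteins anchor them. In the desmosome, desmosomal cadherins are tied by plakoglobin, plakophilins and plakins to keratin filaments, which carry mechanical load. Membrane-bound proteases such as matriptase and prostasin, held in check by Kunitz inhibitors, regulate barrier proteins at the cell surface. PC9 is known as an epithelial-like line and MDA231 as a mesenchymal-like line, in which many of these genes are low.

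In PC9 all 40 symbols were listed and 39 were tested. PKP1, a desmosomal plakophilin, was under the minimum. F11R, a junctional adhesion molecule, was named on 2 rows, and the extra row, called here the F11R second row, can share reads with F11R. Its value is uncertain, and it makes 40 tested rows. In MDA231, 35 symbols were listed and 31 were tested. CLDN3, MARVELD3, PKP1, PRSS8 and TJP3 had no row, and CDH1, CDH3, CRB3 and ST14 were under the minimum. The lines were normalized apart, so levels were not tested between them. As a share of gene reads within a library, the 6 keratins took 1.10 to 2.05% in PC9 and 0.0438 to 0.122% in MDA231.

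The libraries held 36796098 to 51759154 gene reads in PC9. In MDA231 the parental libraries held 11592790 and 11613984 and the LeptoM libraries at least 41751486, so low genes are measured with less precision in the MDA231 parental cells. LCN2 itself, the hairpins' target, was at 21140.4 and 23247 in PC9 parental, 51004 and 49615 in shCTL, 3575 and 7046 in shLCN2_1 and 21415 and 18861 in shLCN2_2 libraries. In MDA231 its mean was under the minimum, with 8.51 and 2.98 in parental, 19.3 and 13.7 in shCTL, 6.53 and 5.79 in shLCN2_1 and 4.31 and 4.93 in shLCN2_2 libraries. PC9 parental replicate 2 stood apart, with 36.5% of its reads on lines naming no gene against 24.4 to 26.4% in the other 7. Of 7 lung adenocarcinoma markers 3 were tested in PC9: EPCAM and KRT7 were high, NAPSA was low, and the defining factor NKX2-1 was at 0 and 0 in the parental libraries. MDA231 had high VIM (180994 and 174829.7 in parental) and ESR1, the oestrogen receptor, near the floor (8.51 and 5.96). The summed meningeal markers, 4 of 7 tested, were 41.7 to 54.0 in PC9 parental, 143 to 179 in shCTL, 220.3 to 249 in shLCN2_1 and 409 to 441 in shLCN2_2 libraries, and PTGDS, a defining meningeal gene, was at 0 in both parental libraries. The same sum, 2 of 7 tested, was 102 to 131 in MDA231 parental and 302 to 328 in shCTL libraries. Whether these markers play any role in the results was not tested.

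The first comparison asks how LeptoM cells with the control hairpin differ from parental cells. In PC9 LeptoM cells, 18 of the 40 rows rose and 8 fell, while 45.6% of all 15650 tested genes changed (23.8% rose and 21.8% fell). The claudins CLDN3, CLDN4 and CLDN7, the scaffold TJP3, the plakins EVPL and PPL, plakoglobin and 4 of 6 keratins were higher. P-cadherin, CLDN1, EPCAM and beta-catenin were lower, and E-cadherin did not pass the test. The median log2 fold change of the members was 0.36, against 0.0129 over all genes tested. With the trend of fold change on transcript GC content removed it was 0.21, against -0.0084 over all genes. GC-rich genes as a whole were higher here. All genes with over 57.9% GC had a median of 0.27, and the 15 members among them 0.60. A call means an adjusted p under 0.05 in limma, with Benjamini-Hochberg adjustment over all tested genes. A log2 fold change is given as limma's estimate ± its standard error, on the log2(value + 1) scale, from 2 libraries against 2. The libraries of the 2 groups did not overlap in 36 of the 40 rows, called or not. The share of all genes without overlap was not counted. Here and below, a lack of overlap describes the values and adds no support to a call. Called members numbered 26 with all libraries, 16 without parental replicate 1, 11 without shCTL replicate 1 and 13 without shCTL replicate 2.

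**Figure D1:**
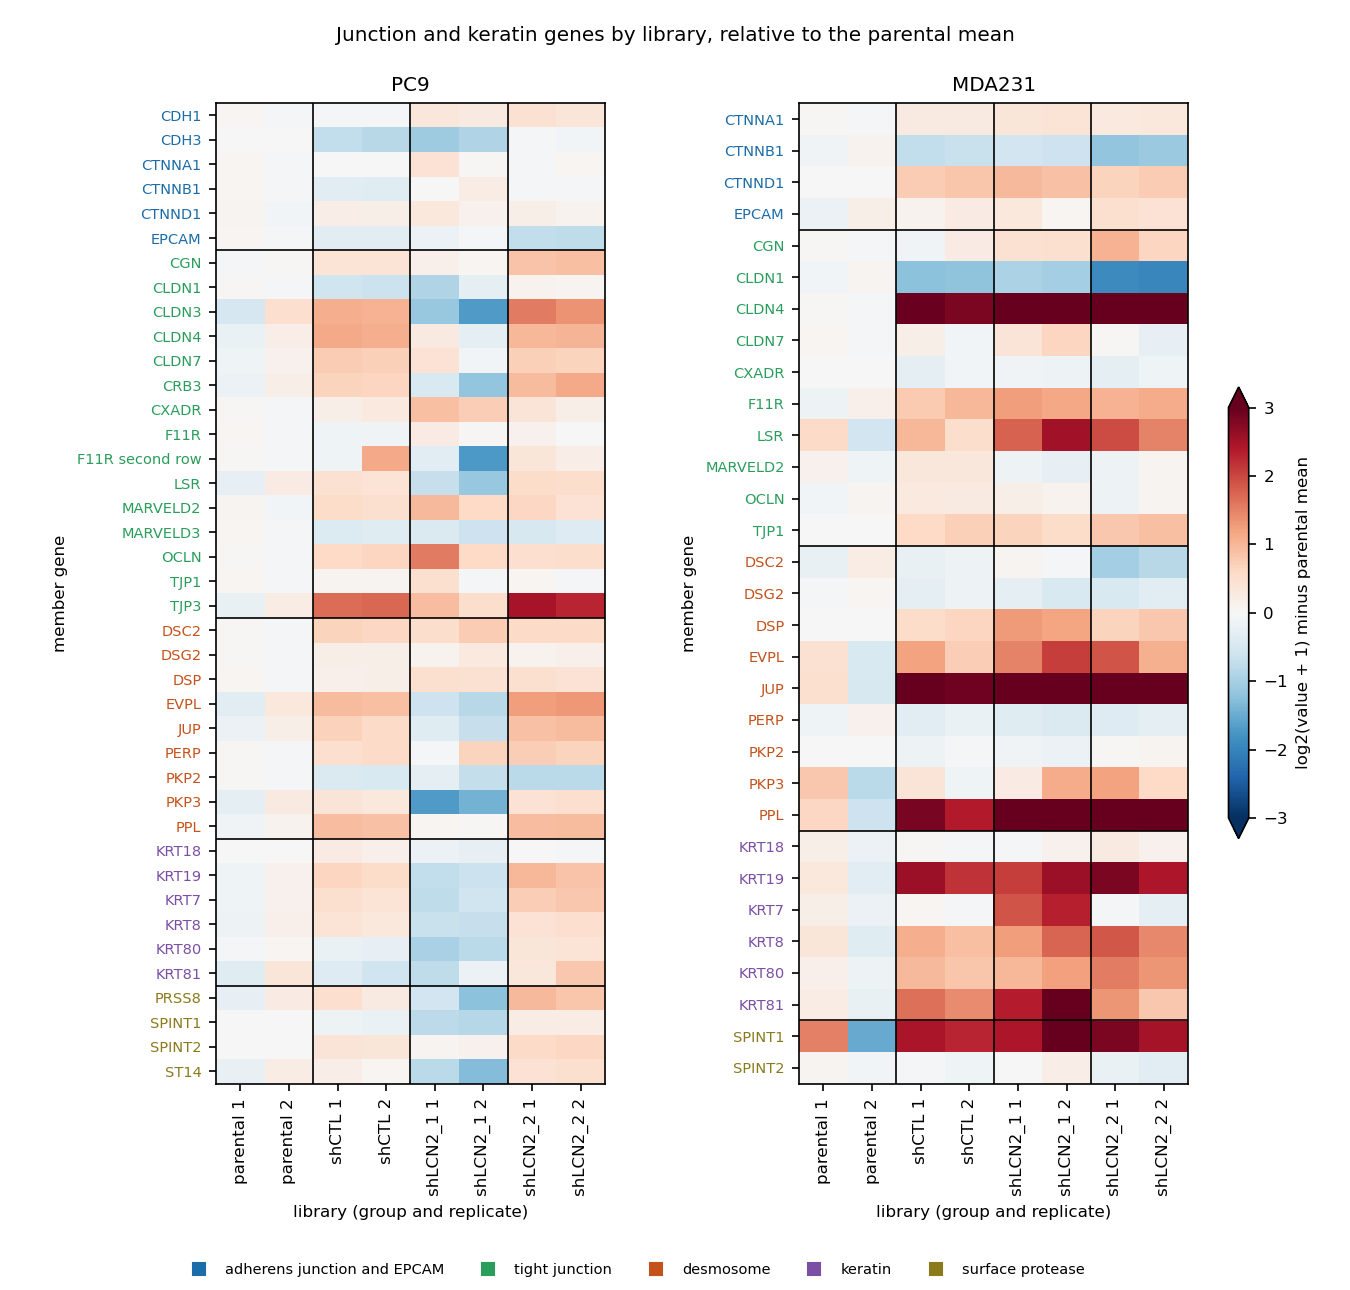
Each row is a tested member and each column 1 library, with PC9 on the left and MDA231 on the right. Colour is log2(value + 1) minus the mean of the 2 parental libraries, capped at 3 in either direction, and row names are coloured by role. In PC9, KRT7, KRT8, KRT18, KRT19 and KRT80 are blue in both shLCN2_1 libraries, and in MDA231 CLDN4, JUP, PPL and KRT19 are red in all 6 LeptoM libraries.

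Among adherens junction genes in PC9, CDH1 (E-cadherin, the main cadherin of epithelia) was at 21592 and 19942 in the parental libraries and 20137 and 20276 in the shCTL libraries. These values overlapped, and the log2 fold change was -0.038 ± 0.065, adjusted p = 0.657. Its neighbour CDH3 (P-cadherin) fell, from 8737 and 8832 to 5302 and 4903, by a log2 fold change of -0.78 ± 0.072, adjusted p = 0.000100. The 2 cadherin genes lie side by side on chromosome 16 (chr16:68636189-68722616 and chr16:68737225-68835548, GRCh38, GENCODE 29). EPCAM fell from 20746 and 19265 to 15836 and 16072, a log2 fold change of -0.33 ± 0.065, adjusted p = 0.00444. Beta-catenin (CTNNB1), which links cadherins to alpha-catenin and also acts in Wnt signalling, fell from 15079 and 14027 to 11558 and 11272 (-0.35 ± 0.084, adjusted p = 0.0104). In these 3 genes no shCTL library reached the lower parental library. Alpha-catenin (CTNNA1) and p120-catenin (CTNND1), which stabilises cadherins at the membrane, did not pass the test, at 0.010 and 0.19.

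Of 15 tight junction rows in PC9, 7 were higher and 2 lower in shCTL than in parental cells. Of all tested genes, 23.8% rose and 21.8% fell. TJP3 (ZO-3, a scaffold) showed the largest log2 fold change of the members. It was at 433 and 588 in the parental libraries and 1624 and 1659 in the shCTL libraries, a log2 fold change of 1.70 ± 0.17, adjusted p = 0.000150. CLDN4, a barrier-forming claudin, rose from 5812 and 7649 to 14771 and 14108 (1.11 ± 0.18, adjusted p = 0.00161). CLDN3, encoded near CLDN4 on chromosome 7, rose from a low level of 94.3 and 191 to 288 and 277 (1.07 ± 0.32, adjusted p = 0.0258). CLDN7 rose from 9406 and 11232 to 17362 and 16951 (0.74 ± 0.15, adjusted p = 0.00486). Both shCTL libraries lay above both parental libraries for each of these 4 genes. Smaller rises were called for CRB3, a Crumbs polarity protein (0.65), tricellulin (MARVELD2, 0.51) and cingulin (CGN, 0.41). CLDN1, another barrier claudin, went the other way, from 4443 and 4229 to 2886 and 2764 (-0.62 ± 0.16, adjusted p = 0.0152), as did MARVELD3 (-0.38). Occludin (OCLN, 0.62), LSR (0.43), a protein of contacts between 3 cells, and ZO-1 (TJP1, 0.074) did not pass the test.

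Desmosome genes were mostly higher in PC9 LeptoM cells, with 6 of 9 tested called higher and 1 lower, against 23.8% and 21.8% of all genes. Envoplakin (EVPL) and periplakin (PPL) tie keratins to the desmosome in stratified epithelia. EVPL was at 1890.3 and 2943 in the parental libraries and 4529 and 4382 in the shCTL libraries (0.92 ± 0.18, adjusted p = 0.00392). PPL rose from 4713 and 5433 to 9631 and 9325 (0.90 ± 0.074, adjusted p = 5.96e-05). Desmocollin 2 (DSC2), a desmosomal cadherin, rose from 1693 and 1592 to 2598 and 2530.5 (0.64 ± 0.084, adjusted p = 0.000556). Plakoglobin (JUP), which serves both desmosomes and adherens junctions, rose from 10779 and 13888 to 19634 and 18166 (0.63 ± 0.13, adjusted p = 0.00601). The shCTL libraries lay above the parental ones in all 4 genes. PERP, a desmosomal membrane protein, (0.54) and desmoplakin (DSP, 0.16) were higher by less, and plakophilin 2 (PKP2) was lower (-0.45).

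Keratins of simple epithelia rose in PC9 LeptoM cells. KRT8 and KRT18 pair into the first filaments of such epithelia, and KRT7 and KRT19 are found in ductal and glandular cells. KRT8 was at 209402 and 259177 in the parental libraries and 308399 and 291451 in the shCTL libraries (0.36 ± 0.10, adjusted p = 0.0188). Its partner KRT18 rose from 225083 and 226866 to 268717 and 252765 (0.21 ± 0.066, adjusted p = 0.0331). KRT19 rose from 58408 and 68809 to 98373 and 93412 (0.60 ± 0.091, adjusted p = 0.00123), and KRT7 from 86473 and 104453 to 131587 and 125638 (0.44 ± 0.10, adjusted p = 0.00840). All shCTL values exceeded all parental values in these 4 genes. KRT80 fell slightly, from 8271 and 8966 to 7543 and 7318 (-0.21 ± 0.074, adjusted p = 0.0461), and the hair keratin KRT81 was not called (-0.49). KRT8, KRT18 and KRT19 have processed pseudogenes, KRT81 is nearly identical to KRT86, and the annotated spans of KRT8 and KRT18 overlap on chromosome 12, so some of their reads are uncertain.

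Of the surface protease genes in PC9, the inhibitor SPINT2 rose from 21155 and 21770.2 to 27957 and 27646 (0.37 ± 0.055, adjusted p = 0.000993). SPINT1, the cognate inhibitor of matriptase, fell from 5836 and 5871 to 5302 and 5062 (-0.18 ± 0.059, adjusted p = 0.0398). Matriptase (ST14) and prostasin (PRSS8) were not called, at 0.12 and 0.39. With the trend of fold change on transcript GC content removed, 22 of the 26 calls held with the same sign. CLDN3, CRB3, KRT18 and KRT7 were then not called, at 0.498, 0.41, 0.13 and 0.12. That fit called 26 of the 40 rows and 7415 of all 15275 genes.

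Other genes of the same structures were counted in PC9 too, where 45.6% of all genes changed (23.8% rose and 21.8% fell). Among 12 other keratins, 7 were higher in LeptoM shCTL cells. KRT23 went from 7.94 and 3.52 to 203 and 198 (4.99 ± 0.31, adjusted p = 1.429e-05). KRT4 rose from 10.9 and 4.70 to 241 and 225 (4.83 ± 0.45, adjusted p = 0.000110), and KRT13, its partner in mucosal epithelia, from 10.9 and 28.2 to 462 and 385 (4.50 ± 0.55, adjusted p = 0.000423). In the PC9 parental libraries 1 read is worth 0.992 and 1.17. The parental values of KRT23, KRT4 and KRT13 thus rest on few reads, and no counting interval was computed for them. Among 12 other adherens genes, 4 were higher and 4 lower. CDH2 (N-cadherin, a cadherin of mesenchymal cells) fell from 1129 and 1046 to 208 and 198 (-2.41 ± 0.34, adjusted p = 0.000844). CDH4 fell from 62.5 and 66.9 to 2.75 and 1.02, the latter 3 and 1 reads. The parental level was 33.5 times the shCTL level, with a 95% exact counting interval of 12.7 to 125. PVRL4, a nectin, rose from 370.1 and 400.4 to 1108 and 1108 (1.52 ± 0.11, adjusted p = 3.399e-05).

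The list named other surface proteases also covers inhibitors such as SERPINB5 and receptors such as MET and PLAUR. In the same comparison, where 45.6% of all genes changed, 7 of its 15 genes were higher and 1 lower. TMPRSS4 rose from 67.5 and 79.9 to 1789 and 1539 (4.48 ± 0.15, adjusted p = 7.032e-07). Of 20 other tight junction genes 5 were higher and 1 lower, and of 10 other desmosome and hemidesmosome genes 3 were higher and 2 lower. Regulators, a list of epithelial and mesenchymal factors that includes ZEB1 and SNAI2, were higher in 7 of 15 and lower in 2. ELF3, an epithelial ETS factor, rose from 1573 and 1619 to 7249 and 7087 (2.17 ± 0.33, adjusted p = 0.00118). KLF5 rose by 1.65 and GRHL1, of the grainyhead family that drives junction genes, by 1.36. Mesenchymal genes moved with these changes in PC9: VIM was at 321 and 353 in parental and 11.9 and 21.3 in shCTL libraries, and the sum of 6 mesenchymal markers, 5 of them tested and most of it from FN1 and CD44, was 248647 to 263354 in parental and 114326 to 114679.8 in shCTL libraries. Their part in the members' changes was not tested.

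The sequences below show where the letters CACCTG, or CAGGTG on the other strand, stand before the start of 4 members that rose in PC9 LeptoM cells. This E-box is the motif that the repressors SNAI1, SNAI2, ZEB1 and ZEB2 are known to bind in promoters of epithelial genes. RefSeq promoter windows (GRCh38.p14) were found for 21 of 40 members, and the 250 bases before each start were searched. The motif stood in at least 1 window of 10 of these 21 genes (47.6%), against 20.6% of all 27305 genes with a window. Counted by window, it stood in 11 of 33 member windows (33.3%), against 17.5% of all 35116 windows. A match is a description of letters and not evidence of binding. Each site is given 5′ to 3′ with 10 bases on either side, the motif in capitals. Neighbouring sites can share bases.
CRB3, chr19:6464033-6464058 (plus strand): gctcgcaatgCAGGTGtaaggtcccc
CRB3, chr19:6464053-6464078 (plus strand): gtccccctcaCACCTGcgcgcttccg
CRB3, chr19:6464114-6464139 (plus strand): ggtcccgttaCAGGTGcgcccacagc
CRB3, chr19:6464172-6464197 (plus strand): cagcgaggctCAGGTGcacaagccgg
CRB3, chr19:6464201-6464226 (plus strand): tgcgctctccCAGGTGagtgactaaa
CLDN7, chr17:7262637-7262662 (minus strand): tcttcctcctCACCTGggcaaggagg
CLDN7, chr17:7262598-7262623 (minus strand): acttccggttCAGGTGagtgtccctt
CLDN7, chr17:7262483-7262508 (minus strand): tacatatactCAGGTGcgccccacct
CLDN7, chr17:7262472-7262497 (minus strand): aggtgcgcccCACCTGtccgcccgca
JUP, chr17:41786015-41786040 (minus strand): actctggcccCACCTGccgagcaggt
JUP, chr17:41786004-41786029 (minus strand): acctgccgagCAGGTGagcgcacgga
DSP, chr6:7541483-7541508 (plus strand): gcggcgggcgCAGGTGgggaggggcg
DSP, chr6:7541576-7541601 (plus strand): agaaaccggcCAGGTGtggcctaggc

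CRB3 held 5 sites and 1 of the CLDN7 starts held 4. Windows with at least 4 sites made up 0.122% of all 35116 windows. The CLDN7 window with 4 sites lies in annotated exons over all of its 250 bases, the CRB3 window over 193, the JUP window with 2 sites over 233 and the DSP window, also with 2, over 96. The further upstream windows of CLDN7 and JUP held none. Of the 10 genes with a match, 6 rose in PC9 LeptoM cells (CRB3, CLDN7, JUP, DSP, DSC2 and TJP3), SPINT1 fell, and OCLN, TJP1 and DSG2 were not called. DSG2 held 2 sites in 1 window and is not printed. Of the 10 tested genes with no match, 6 also rose (CGN, CLDN3, CLDN4, KRT8, MARVELD2 and PERP), CLDN1 and CTNNB1 fell, and CTNNA1 and LSR were not called. For comparison, the 250 bases searched for CLDN3, the most GC-rich member transcript, and for KRT8 hold no match and lie outside annotated exons. The KRT8 and CLDN4 windows lie inside the annotated spans of their genes. The bases before the outermost annotated starts of KRT8 and CLDN4 were thus not searched.
CLDN3, chr7:73770271-73770520 (minus strand): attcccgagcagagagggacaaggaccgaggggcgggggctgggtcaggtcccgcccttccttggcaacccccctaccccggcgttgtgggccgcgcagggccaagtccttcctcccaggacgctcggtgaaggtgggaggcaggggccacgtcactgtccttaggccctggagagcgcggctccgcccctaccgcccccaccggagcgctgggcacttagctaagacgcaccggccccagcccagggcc
KRT8, chr12:52926470-52926719 (minus strand): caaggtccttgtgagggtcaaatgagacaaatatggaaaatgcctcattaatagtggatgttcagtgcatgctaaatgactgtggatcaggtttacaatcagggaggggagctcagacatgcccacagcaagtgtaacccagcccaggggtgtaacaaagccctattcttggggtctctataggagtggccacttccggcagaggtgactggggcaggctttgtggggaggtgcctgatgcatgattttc

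SNAI2, 1 of the repressors named above, fell in PC9 LeptoM cells from 201 and 190.2 to 68.8 and 93.5 (-1.28 ± 0.39, adjusted p = 0.0280). SNAI1 was not called (-0.019), and ZEB1 was at 12.9 and 11.7 in parental and 20.2 and 31.5 in shCTL libraries. In MDA231 the same factors were at other levels: ZEB1 was at 4209 and 4713 in parental and 3875 and 4269 in shCTL libraries and was not called (-0.13), and SNAI2 rose from 621 and 712 to 1138 and 1236 (0.83 ± 0.10, adjusted p = 0.000973).

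The next comparison sets each LCN2 hairpin against the control hairpin in PC9 LeptoM cells. With shLCN2_1, 21 of 40 rows fell and 6 rose, while 44.2% of all tested genes changed (25.3% fell and 18.8% rose). The rows that fell were CLDN3, CLDN4, CLDN7, CRB3, CGN, LSR, TJP3, the F11R second row, EVPL, PPL, PKP3, JUP, 5 of 6 keratins and all 4 protease genes, and those that rose were CDH1, CTNNB1, EPCAM, CXADR, F11R and DSP. The median log2 fold change of the 40 rows was -0.29, against 0.0308 over all genes. GC-rich genes as a whole fell in this comparison. Of all genes with over 57.9% GC, 74.4% fell, with a median of -0.92, and 14 of 15 members there fell. Of all genes with under 41.1% GC, 41.2% rose. Across the 40 member rows, Spearman's rho of GC content with log2 fold change was -0.827, a description of genes in the same 4 libraries. With the GC trend of all genes removed from each library, 6 members fell and 5 rose, 11 of 40 in all, while 25.0% of all genes were called (12.5% fell and 12.6% rose). Marker sums of other cell types moved in the same libraries: leukocyte markers, 5 of 7 tested, summed to 822 to 849.6 in shCTL, 344 to 509.9 in shLCN2_1 and 1577 to 1581 in shLCN2_2 libraries. In the same order endothelial markers, 1 of 4 tested, summed to 1029 to 1061, 315 to 518 and 1469 to 1714, and fibroblast markers, 1 of 6 tested, to 615 to 743, 242 to 383 and 975 to 1005. Their part in the result was not tested.

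**Figure D2:**
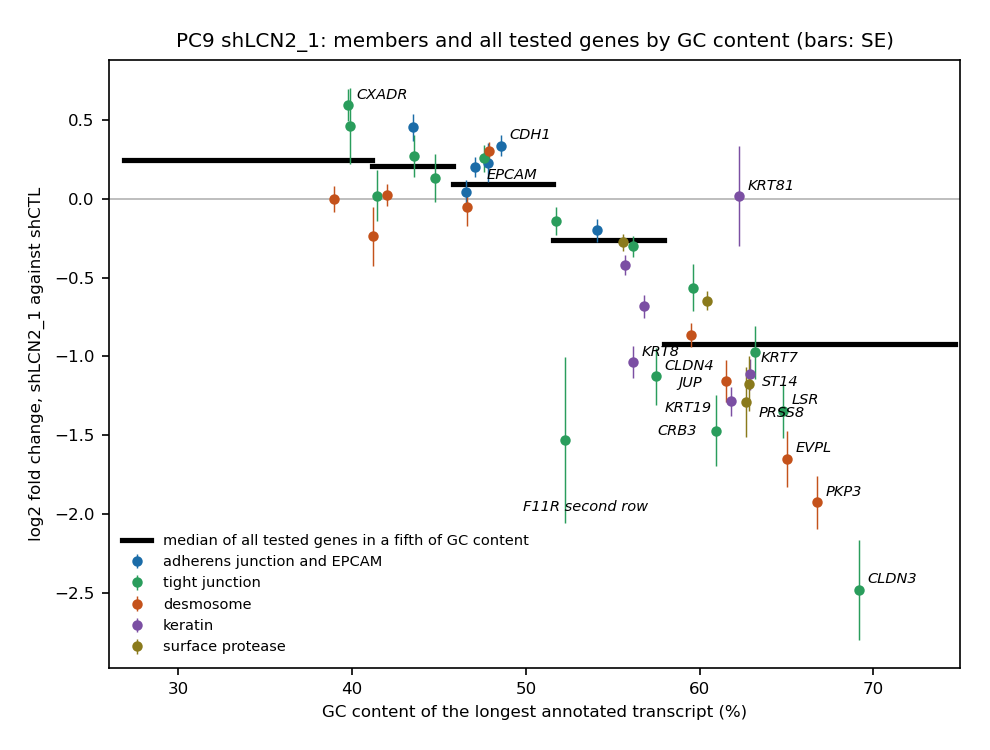
The x axis is the GC content of each member's longest annotated transcript in percent, and the y axis its log2 fold change in PC9 shLCN2_1 against shCTL, with bars of 1 SE. Points are members coloured by role and black lines are the medians of all tested genes in 5 equal bins of GC content. Members step down with the black lines. CLDN3, PKP3 and EVPL lie furthest below the median of the GC-richest bin, and KRT81 lies above it.

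Tight junction genes fell in 8 of 15 rows with shLCN2_1 and rose in 2, against 25.3% and 18.8% of all genes. CLDN3 fell from 288 and 277 in shCTL to 60.8 and 40.7 in shLCN2_1 libraries (-2.48 ± 0.32, adjusted p = 0.000519). CRB3 fell from 466 and 460.4 to 213 and 130.0 (-1.47 ± 0.22, adjusted p = 0.00120), and LSR from 8041 and 7688 to 3592 and 2666 (-1.34 ± 0.17, adjusted p = 0.000505). CLDN4 fell from 14771 and 14108 to 8043 and 5435 (-1.13 ± 0.18, adjusted p = 0.00150), and its shLCN2_1 values straddled the parental pair of 5812 and 7649. TJP3 fell by 0.98, CLDN7 by 0.56 and CGN by 0.30 on the log2 scale. CXADR, the coxsackievirus receptor of tight junctions, rose from 951 and 1039.6 to 1598 and 1409.7 (0.59 ± 0.10, adjusted p = 0.00224). The F11R second row, which can share reads, was at 18.9 and 6.61 (-1.53 ± 0.53, adjusted p = 0.0450). With the GC trend removed, CLDN3 (-0.74, adjusted p = 0.0308) and CLDN4 (-0.60, adjusted p = 0.0241) still fell, CRB3 was at -0.58 (adjusted p = 0.0541) and LSR at -0.032.

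Desmosome genes fell in 4 of 9 with shLCN2_1, against 25.3% of all genes. Plakophilin 3 (PKP3), which binds desmosomal cadherins and plakins, fell from 4244 and 4044 to 985 and 1206 (-1.93 ± 0.17, adjusted p = 0.000168). EVPL fell from 4529 and 4382 to 1533 and 1314 (-1.65 ± 0.18, adjusted p = 0.000252), and JUP from 19634 and 18166 to 9448 and 7613 (-1.15 ± 0.13, adjusted p = 0.000317). PPL fell from 9631 and 9325 to 5241 and 5163 (-0.87 ± 0.074, adjusted p = 0.000168). No shLCN2_1 library overlapped a shCTL library in these 4 genes. DSP rose from 13498 and 13699 to 16867 and 16732 (0.30 ± 0.058, adjusted p = 0.00366), and the desmosomal cadherins DSC2 and DSG2 were at 0.00011 and 0.024. After GC removal PKP3 (-0.42, adjusted p = 0.0365) and EVPL (-0.31, adjusted p = 0.0151) still fell, while JUP and PPL were not called, at -0.19 and -0.13.

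Keratins fell in 5 of 6 with shLCN2_1, against 25.3% of all genes. KRT8 fell from 308399 and 291451 to 147277 and 145379 (-1.03 ± 0.10, adjusted p = 0.000181), KRT19 from 98373 and 93412 to 38195 and 40505 (-1.29 ± 0.091, adjusted p = 0.000167), and KRT7 from 131587 and 125638 to 56023 and 62983 (-1.11 ± 0.10, adjusted p = 0.000168). KRT80 fell from 7543 and 7318 to 4372 and 4903 (-0.68 ± 0.074, adjusted p = 0.000259), and KRT18 by less, from 268717 and 252765 to 198908 and 190479 (-0.42 ± 0.066, adjusted p = 0.00132). KRT8, KRT19, KRT7, KRT80 and KRT18 were lower in both shLCN2_1 libraries than in any of the other 6 PC9 libraries. The ratio of KRT8 to KRT18 reads, not scaled by length, was 0.930 and 1.14 in parental, 1.15 and 1.15 in shCTL, 0.740 and 0.763 in shLCN2_1 and 1.39 and 1.497 in shLCN2_2 libraries. After GC removal, KRT8 (-0.63, adjusted p = 0.00230) and KRT19 (-0.29, adjusted p = 0.0446) still fell. KRT7 came to 0.00026, and KRT81, which stood at 0.016 before, rose by 1.06 (adjusted p = 0.0308).

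All 4 protease genes fell with shLCN2_1, against 25.3% of all genes. PRSS8, the membrane-anchored protease prostasin, fell from 2529.7 and 2139 to 1188 and 759 (-1.29 ± 0.22, adjusted p = 0.00212). ST14, matriptase, fell from 8163 and 7446 to 4091 and 2924 (-1.17 ± 0.17, adjusted p = 0.00106). SPINT1 fell from 5302 and 5062 to 3391 and 3230.3 (-0.65 ± 0.059, adjusted p = 0.000168) and SPINT2 from 27957 and 27646 to 22646 and 23281 (-0.28 ± 0.055, adjusted p = 0.00440). After GC removal none of the 4 was called by limma, with values of -0.20, -0.063, 0.20 and 0.081 and adjusted p-values of 0.409, 0.709, 0.106 and 0.257.

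Of 6 adherens junction genes 3 rose with shLCN2_1, against 18.8% of all genes. CDH1 rose from 20137 and 20276 to 26138 and 24937 (0.34 ± 0.065, adjusted p = 0.00369). CTNNB1 rose from 11558 and 11272 to 14358 and 17007 (0.45 ± 0.084, adjusted p = 0.00314), and EPCAM from 15836 and 16072 to 17618 and 19147 (0.20 ± 0.065, adjusted p = 0.0343). CDH3 was at -0.20 (adjusted p = 0.0547), the nearest of the 6 to a call in the lower direction. After GC removal CDH1 (0.26) and CTNNB1 (0.25, adjusted p = 0.0483) were still called and EPCAM (0.076) was not. The 2 shLCN2_1 libraries lay apart in some members: OCLN was at 3314 and 1720.3 and PERP at 17718 and 29332.

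With the other hairpin, shLCN2_2, 13 of 40 PC9 rows rose and 1 fell, while 19.5% of all genes changed (9.81% rose and 9.70% fell). CDH3 rose from 5302 and 4903 to 8528 and 8324 (0.72 ± 0.072, adjusted p = 0.00128), close to its parental level of 8737 and 8832. CDH1 rose from 20137 and 20276 to 28434 and 26759 (0.45 ± 0.065, adjusted p = 0.00404) and CTNNB1 by 0.31 ± 0.084. EPCAM fell from 15836 and 16072 to 11904 and 11876 (-0.42 ± 0.065, adjusted p = 0.00507). CLDN1 rose from 2886 and 2764 to 4659 and 4565 (0.71 ± 0.16, adjusted p = 0.0205), TJP3 from 1624 and 1659 to 2793 and 2461 (0.68 ± 0.17, adjusted p = 0.0288) and CGN from 3127 and 3106 to 4284 and 4358 (0.47 ± 0.065, adjusted p = 0.00352). DSP, from 13498 and 13699 to 16821 and 16397 (0.29 ± 0.058, adjusted p = 0.0131), was the 1 desmosome gene called.

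Of 6 keratins 4 rose with shLCN2_2 in PC9, against 9.81% of all genes. With the GC trend removed, 1 of these 4 kept its call, and 1 keratin was called lower. In that fit 10 of the 40 rows were higher and 2 lower, and 3738 of all 15275 genes were called. KRT81 went from 49.5 and 42.7 to 82.0 and 115 (1.06 ± 0.32, adjusted p = 0.04997) and KRT80 from 7543 and 7318 to 11073 and 11469 (0.60 ± 0.074, adjusted p = 0.00251). KRT7 rose from 131587 and 125638 to 159155 and 167193 (0.34 ± 0.10, adjusted p = 0.0463) and KRT19 from 98373 and 93412 to 127208 and 115301 (0.34 ± 0.091, adjusted p = 0.0365). KRT8, at 316695 and 332866, and KRT18, at 228097 and 222302, were not called (0.11 and -0.21). CLDN4, at 13199 and 13575, and JUP, at 22681 and 23449.8, were not called either, with 95% intervals of -0.52 to 0.30 and -0.018 to 0.59. SPINT1 rose from 5302 and 5062 to 6872 and 6811 (0.40 ± 0.059, adjusted p = 0.00437) and SPINT2 by 0.22 ± 0.055. Without any 1 library of the shCTL or shLCN2_2 group, fewer of the 14 members were called, with 1 library then standing for its group. None of the 14 fold changes changed sign in those fits. A fit of these 2 groups alone called 26, and 51.4% of all genes.

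Both hairpins share the shCTL libraries, so each comparison's values stand side by side here. CDH1, CTNNB1 and DSP were higher with both. CGN, KRT7, KRT19, KRT80, SPINT1, SPINT2 and TJP3 were lower with shLCN2_1 and higher with shLCN2_2, and EPCAM the reverse. With the GC trend removed, KRT19 alone of the 7 was still called lower with shLCN2_1. EPCAM was then no longer called higher with shLCN2_1. Set against each other directly, shLCN2_1 was lower than shLCN2_2 in 23 of 40 rows and higher in 2, and 54.5% of all genes differed (28.9% lower and 25.6% higher). CLDN3 (-2.86 ± 0.32, adjusted p = 0.000182), PKP3 (-2.03), EVPL (-2.001), CRB3 (-1.86) and PRSS8 (-1.80) differed most, and all 6 keratins and all 4 protease genes were lower with shLCN2_1. EPCAM (0.63 ± 0.065, adjusted p = 0.000130) and CXADR (0.54) were the 2 that were higher. With the GC trend removed 15 were lower and 2 higher, against 17.4% and 16.7% of all genes (34.2% in either direction). Of these calls 12 had the same call before: EVPL, JUP, KRT8, KRT19, KRT80, CDH3, CGN, CLDN1, CLDN3, CRB3, PRSS8 and EPCAM. The log2 difference of LCN2 between the hairpins was -2.001.

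**Figure D3:**
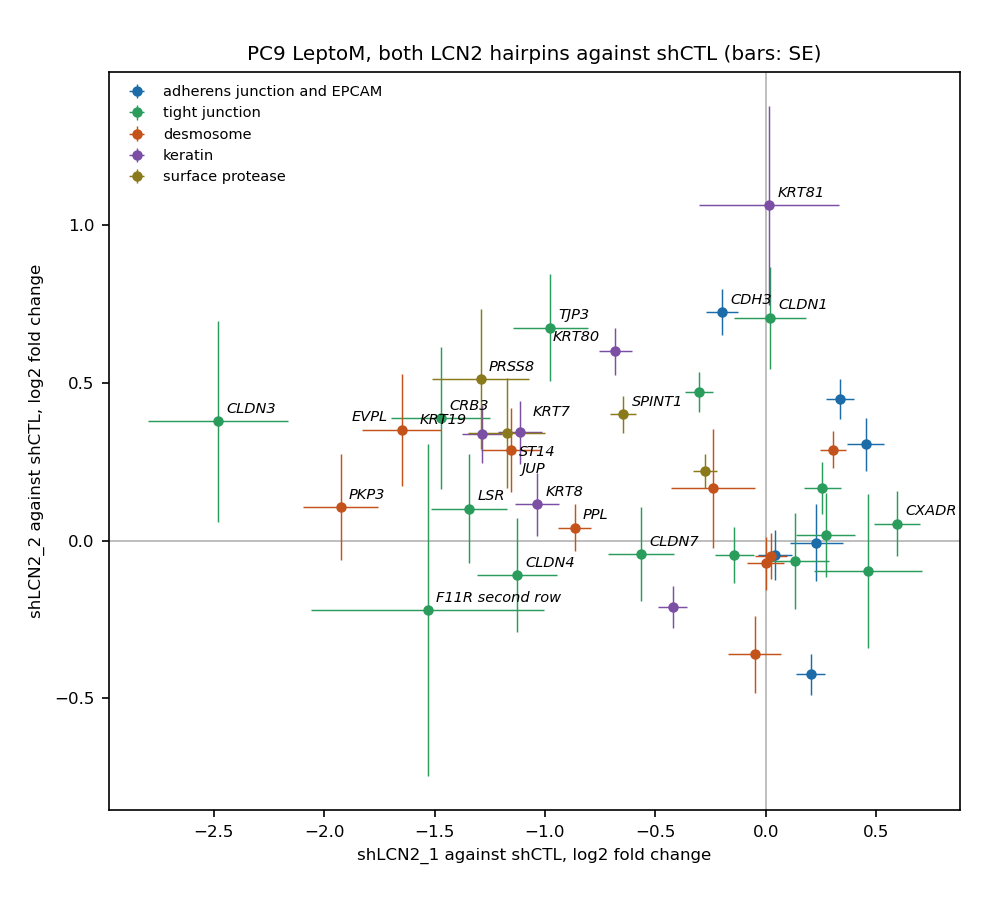
Each point is a tested member in PC9, with the log2 fold change of shLCN2_1 against shCTL on the x axis and of shLCN2_2 against shCTL on the y axis, bars of 1 SE and colours by role. Both axes share the shCTL libraries. KRT7, KRT19, KRT80, SPINT1, SPINT2, CGN and TJP3 lie at the upper left, and CDH1, CTNNB1 and DSP at the upper right.

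Other pathway genes in PC9 gave the following counts against shCTL. With shLCN2_1, where 44.2% of all genes changed, 3 of 12 other adherens genes were higher and 5 lower, 6 of 20 other tight junction genes higher and 6 lower, 3 of 10 other desmosome and hemidesmosome genes lower, 4 of 12 other keratins lower, 3 of 15 other surface proteases higher and 6 lower, and 1 of 15 regulators higher and 6 lower, all by limma. With the GC trend removed, where 25.0% of all genes were called, 2 other adherens genes were higher, 6 other tight junction genes were higher and 3 lower, 2 other desmosome and hemidesmosome genes were lower, 1 other keratin was higher, 2 other surface proteases were higher and 3 lower, and 2 regulators were lower. PLEC, the linker plectin, fell from 16635 and 16754 to 3111 and 4058 (-2.23 ± 0.22, adjusted p = 0.000183), and integrin beta 4 (ITGB4) from 9537 and 8988 to 2032 and 3349 (-1.83 ± 0.23, adjusted p = 0.000490). Their GC-removed values were -0.70 and -0.63. With shLCN2_2, 19.5% of all genes changed. Higher were 3 of 12 other adherens genes, 5 of 20 other tight junction genes and 3 of 12 other keratins. Of the other desmosome and hemidesmosome genes 2 of 10 were higher. The list of other surface proteases had 5 of 15 higher and 1 lower, and 1 regulator was lower. COL17A1, a hemidesmosome collagen, rose from 102 and 127 to 674 and 650.3 (2.53 ± 0.54, adjusted p = 0.0163), KRT4 from 241 and 225 to 971 and 884 (1.99 ± 0.45, adjusted p = 0.0201) and KRT16 from 694 and 612 to 1409.5 and 1486 (1.15 ± 0.11, adjusted p = 0.00114).

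In MDA231, LeptoM shCTL cells had 12 members higher and 2 lower than parental cells, of 31 tested, while 48.7% of all 14387 tested genes changed (24.8% rose and 23.8% fell). Plakoglobin, CLDN4, periplakin and KRT19 rose the most, and CLDN1 and beta-catenin fell. The members' median was 0.29, against 0.0442 over all genes. With the GC trend removed it was 0.26, against 0.011 over all genes. All genes with over 57.2% GC had a median of 0.60, and the 11 members among them 1.54. CDH1 was at 0 and 0 in parental and 7.15 and 6.83 in shCTL libraries. A floor of 3 reads is worth 8.51 to 8.94 in the parental libraries, so no fold change is given. The 14 calls kept their sign and their call with the GC trend removed, which called 23 members in all and 61.5% of all genes. Marker sums of other cell types were higher in shCTL than in parental libraries: endothelial markers, 1 of 4 tested, summed to 170.2 to 206 in parental and 658 to 694 in shCTL libraries, leukocyte markers, 3 of 7 tested, to 68.5 to 122 and 166 to 201, and fibroblast markers, 2 of 6 tested, to 38.7 to 70.9 and 119 to 152. Their part in the result was not tested.

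**Figure D4:**
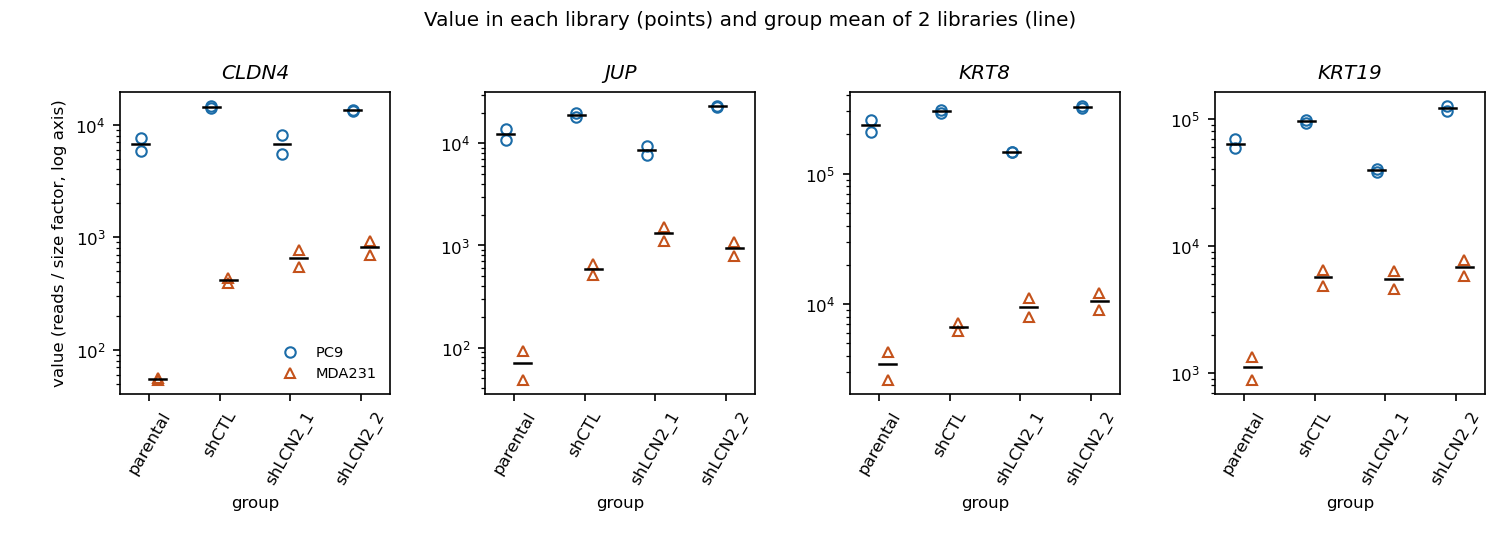
Values of CLDN4, JUP, KRT8 and KRT19 in every library, as reads divided by the size factor on a log axis, for the 4 groups of each line (circles PC9, triangles MDA231). Black lines are means of 2 libraries, and the 2 lines were normalized apart. In MDA231 all 6 LeptoM libraries lie above both parental libraries for the 4 genes, and in PC9 both shLCN2_1 libraries lie below both shCTL libraries.

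JUP rose in MDA231 from 93.6 and 47.7 in parental to 662 and 514 in shCTL libraries (3.11 ± 0.34, adjusted p = 0.000574), the largest change among the members. CLDN4 rose from 56.7 and 53.6 to 437 and 397 (2.89 ± 0.21, adjusted p = 0.000120). KRT19 rose from 1347 and 873 to 6437 and 4876 (2.37 ± 0.27, adjusted p = 0.000687). PPL, from 8.51 and 2.98 to 43.6 and 31.1, rested on 3 and 1 parental reads. Its level in shCTL was 6.46 times the parental level, with a 95% exact counting interval of 2.45 to 24.2, and its log2 fold change was 2.62 ± 0.41, adjusted p = 0.00247. DSP rose from 2867 and 2905 to 4230.3 and 4491 (0.59 ± 0.082, adjusted p = 0.00141). The other desmosome genes, DSG2 (-0.21), DSC2 (-0.18), PERP (-0.27), PKP2 (-0.086), PKP3 (0.13) and EVPL (0.96), were not called. The parental replicates of PKP3 (261 and 83.4) and EVPL (403 and 212) lay far apart.

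Among the other MDA231 keratins, KRT81 rose from 391 and 289 to 1061 and 903 (1.54 ± 0.27, adjusted p = 0.00367), KRT8 from 4285 and 2592 to 7109.6 and 6219 (0.996 ± 0.27, adjusted p = 0.0214) and KRT80 from 1007 and 828 to 1801 and 1632 (0.91 ± 0.14, adjusted p = 0.00228). KRT18 was at 13409 and 10400.5 in parental and 12100.1 and 11365 in shCTL libraries, with overlapping groups (-0.010 ± 0.14, adjusted p = 0.957), and KRT7 at 204 and 161 in parental and 190.2 and 174 in shCTL libraries (0.0073). The ratio of KRT8 to KRT18 reads was 0.320 and 0.249 in parental, 0.588 and 0.547 in shCTL, 0.699 and 0.856 in shLCN2_1 and 0.849 and 0.702 in shLCN2_2 libraries. All 6 LeptoM ratios were above both parental ratios.

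Tight junction genes in MDA231 were higher for 3 of 10 and lower for 1, against 24.8% and 23.8% of all genes. CLDN1 fell from 1914 and 2154 to 864 and 880.0 (-1.22 ± 0.096, adjusted p = 0.000177). F11R rose from 209.9 and 259 to 401 and 467 (0.89 ± 0.15, adjusted p = 0.00284) and TJP1 from 3023 and 2946 to 4529.9 and 4886 (0.66 ± 0.082, adjusted p = 0.000978). CLDN7 was at 542 and 506 in parental and 594 and 498 in shCTL libraries and was not called (0.053, 95% interval -0.32 to 0.42). In the adherens junction CTNND1 rose from 4475 and 4546 to 7660.3 and 7967 (0.79 ± 0.076, adjusted p = 0.000354), CTNNA1 from 20758 and 19934 to 24672 and 24712 (0.28 ± 0.064, adjusted p = 0.0112), and CTNNB1 fell from 19564 and 22517 to 12539 and 13254 (-0.70 ± 0.089, adjusted p = 0.000999). EPCAM was low, at 233 and 301 in parental and 286 and 314 in shCTL libraries, with overlapping groups (0.18 ± 0.16, adjusted p = 0.391). The 2 inhibitors tested were not called. SPINT1 was at 31.2 and 2.98 in parental libraries, from 11 and 1 reads, and at 60.8 and 54.6 in shCTL libraries (2.37 ± 0.85, adjusted p = 0.0530). Its ratio was 3.31, with a 95% exact counting interval of 1.84 to 6.55, which covers counting error only.

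Other genes of the same structures were counted in MDA231 as well, where 48.7% of all genes changed (24.8% rose and 23.8% fell). Of 13 other adherens genes 5 were higher and 2 lower, and of 16 other tight junction genes 4 and 2. Of 9 other desmosome and hemidesmosome genes 5 were higher and 2 lower. In the list of other surface proteases 2 of 6 were higher and 2 lower, with the receptor genes MET higher and PLAUR lower. Higher were 2 of 3 other keratins and 5 of 10 regulators, with SNAI2 among the 5. CDH11, a cadherin of mesenchymal cells, rose from 264 and 280.0 to 3760.4 and 3995 (3.83 ± 0.081, adjusted p = 2.237e-06). PLEKHA7, which binds p120-catenin at the adherens junction, rose from 2.84 and 5.96, 1 and 2 reads, to 87.3 and 79.7, a ratio of 19.2 with a 95% exact counting interval of 6.48 to 93.7. ESRP2, an epithelial splicing regulator, rose from 42.5 and 32.8 to 137 and 148 (1.90 ± 0.18, adjusted p = 0.000324).

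The number of genes called with the LCN2 hairpins in MDA231 differed between fits. With shLCN2_1, 2 of 31 members rose, while 0.841% of all genes changed (0.389% rose and 0.452% fell). With shLCN2_2, 1 fell, against 0.521% of all genes (0.139% rose and 0.382% fell). On the recovered reads edgeR called 3 and 1 members, against 2.06% and 1.31% of all genes, and DESeq2 6 and 4, against 3.39% and 2.43%. KRT7 rose with shLCN2_1 from 190.2 and 174 to 669 and 913 (2.09 ± 0.20, adjusted p = 0.0110) and was at 175 and 148 with shLCN2_2. DSP rose with shLCN2_1 from 4230.3 and 4491 to 7025 and 6522 (0.63 ± 0.082, adjusted p = 0.0294). CLDN1 fell with shLCN2_2 from 864 and 880.0 to 539 and 520.4 (-0.72 ± 0.096, adjusted p = 0.0373). Without any 1 library of the 2 compared groups, 0 members were called in either comparison.

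JUP was at 1117 and 1527 with shLCN2_1 and 1084 and 790.1 with shLCN2_2 in MDA231, above both shCTL libraries but not called (1.16 ± 0.34, adjusted p = 0.198, and 0.66 ± 0.34, adjusted p = 0.415). CLDN4, at 549.6 and 769 (shLCN2_1) and 936 and 695 (shLCN2_2), was also not called (0.64 and 0.95, 95% intervals 0.15 to 1.13 and 0.47 to 1.44). KRT8 was at 7953 and 11145 (shLCN2_1) and 12153 and 8999 (shLCN2_2) (0.502 and 0.65). KRT18, at 11385 and 13015 (shLCN2_1) and 14309 and 12819.9 (shLCN2_2), KRT19, at 4539 and 6381 (shLCN2_1) and 7743 and 5798 (shLCN2_2), and EPCAM, at 331 and 278 (shLCN2_1) and 371 and 359 (shLCN2_2), were not called with either hairpin. CDH1 was at 5.23 and 4.50 (shLCN2_1) and 2.87 and 1.41 (shLCN2_2), from 8, 7, 4 and 2 reads. Within MDA231 groups the 2 replicates differed in their GC trend (Spearman's rho of GC content with each gene's deviation was 0.30 and -0.33 in the shCTL libraries, across genes). Removing the GC trend raised the calls from 2 to 11 with shLCN2_1 and from 1 to 8 with shLCN2_2. In the same fit the calls over all genes rose to 9.79% and 7.44%.

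Between the 2 hairpins in MDA231, 6 of 31 members were higher with shLCN2_1, against 2.69% of all genes (1.52% higher and 1.17% lower). KRT7 (2.27 ± 0.20, adjusted p = 0.00493), KRT81 (1.60), CLDN1 (0.95), DSC2 (0.93), CTNNB1 (0.55) and DSP (0.49) were higher. KRT81 was at 1714 and 2666 with shLCN2_1 and 839 and 589 with shLCN2_2, and CLDN1 at 1044 and 1005 (shLCN2_1) and 539 and 520.4 (shLCN2_2). DSC2 was at 467 and 419.8 (shLCN2_1) and 216 and 248 (shLCN2_2), and CTNNB1 at 14103 and 13546 (shLCN2_1) and 9185 and 9745 (shLCN2_2). Without 1 library of either hairpin 0 or 1 members were called, and 2 without either shCTL library. With the GC trend removed 12 members were higher and 4 lower, against 10.6% and 8.37% of all genes (18.9% in either direction). With the replicate block 3 were called, against 1.24% of all genes. In the list of other genes, CDH11 (0.96) was among those higher too.

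The lines were compared through the difference of their fold changes, over the 13392 genes tested in both. Of the 31 shared members, CLDN4, DSP, JUP, KRT8, KRT19 and PPL were higher in LeptoM shCTL than in parental cells of both lines, CLDN1 and CTNNB1 lower in both, and KRT80 lower in PC9 and higher in MDA231. The difference between lines was called for 20 of 31 members (PC9 above MDA231 in 8 and below in 12), against 46.0% of all genes (21.7% above and 24.3% below). JUP differed by -2.48, CLDN4 by -1.78, KRT19 by -1.77 and PPL by -1.72 (PC9 minus MDA231), so each rose more in MDA231. The PPL value rested on 3 and 1 MDA231 parental reads. Among the 8 with a difference above 0 were CLDN7 (0.69) and DSC2 (0.82).

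**Figure D5:**
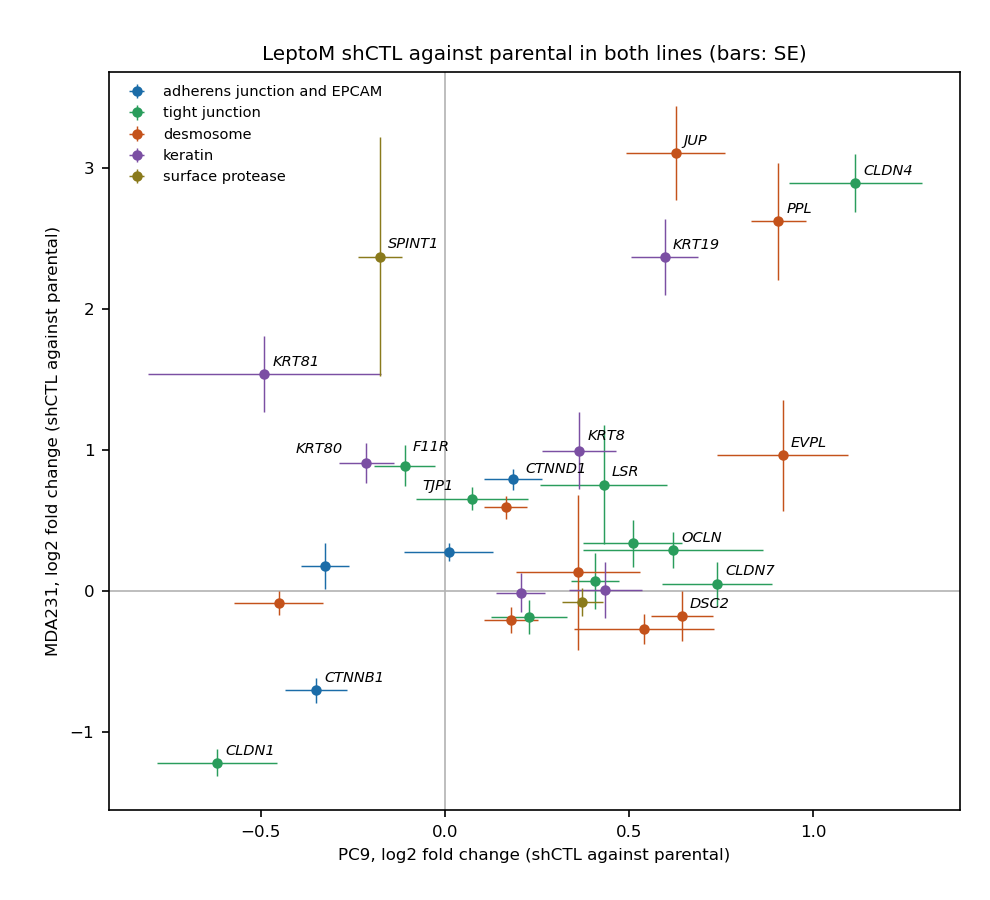
Each point is 1 of the 31 members tested in both lines, with the log2 fold change of LeptoM shCTL against parental in PC9 on the x axis and in MDA231 on the y axis, bars of 1 SE and colours by role. JUP, CLDN4, PPL and KRT19 lie at the upper right, CLDN1 and CTNNB1 at the lower left, and KRT80 at the upper left.

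For shLCN2_1 against shCTL the lines differed in 19 of 31 members, with PC9 below MDA231 in 16 and above in 3, against 37.6% of all genes (21.9% below and 15.7% above). KRT7 differed by -3.21 (adjusted p = 8.361e-05), having fallen in PC9 and risen in MDA231. LSR (-2.73), EVPL (-2.48), PKP3 (-2.46) and JUP (-2.32) also differed. The count became 1 without MDA231 shCTL replicate 2, 2 without MDA231 shLCN2_1 replicate 2 and 10 with the GC trend removed, against 18.7% of all genes in that fit. For shLCN2_2 it was 4 of 31, against 5.87% of all genes (3.97% above and 1.90% below): CLDN1 (1.43), KRT81 (1.54) and CTNNB1 (0.75) were higher in PC9 and CLDN4 (-1.06) lower. With the GC trend removed it was 12, against 18.0% of all genes. The count of 4 for shLCN2_2 ran from 1 to 9 as single libraries were left out: 2 without either PC9 shCTL library, either PC9 shLCN2_2 library, MDA231 shCTL replicate 1 or either MDA231 shLCN2_2 library, 1 without MDA231 shCTL replicate 2, 7 without either PC9 shLCN2_1 library and 9 without either MDA231 parental library. The differences for both hairpins were added after seeing the data.

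Among the members, the genes whose levels followed each other over the 8 libraries of a line were named by Pearson's r of log2 values, as a description of libraries that share their groups and their GC trend. In PC9 the 3 most like JUP were EVPL (r = 0.9961), CRB3 (r = 0.9885), CLDN3 (r = 0.9863), those most like KRT19 were KRT7 (r = 0.9928), EVPL (r = 0.9833), JUP (r = 0.9780), and those most like CLDN4 were CLDN7 (r = 0.9746), PPL (r = 0.9625), JUP (r = 0.9108). For CDH1 they were DSP (r = 0.9035), F11R (r = 0.7309), MARVELD2 (r = 0.5864). In MDA231 the 3 most like JUP were PPL (r = 0.9939), CTNNA1 (r = 0.9852), CLDN4 (r = 0.9755) and the 3 most like CLDN4 were KRT80 (r = 0.9790), JUP (r = 0.9755), KRT19 (r = 0.9724). KRT19 was most like CLDN4 (r = 0.9724), KRT80 (r = 0.9652), JUP (r = 0.9596).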

How the data were processed

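Polyadenylated RNA of 16 libraries was sequenced after a stranded TruSeq preparation, per the labels' protocols. The authors deposited 1 table per line of a signal, gene reads divided by 1 size factor per library. The submitters' processing notes name HTSeq 0.5.3, DESeq2 1.22.1 and hg19; the aligner, annotation and strand setting are not given in the sources used here. Overlapping and antisense genes may therefore share reads. Lines naming no gene, 24.4 to 36.5% of a PC9 library's reads, were left out.

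Groups came from the sample titles. Values were tested as log2(value + 1) with limma 3.58.1 (R 4.3.3) over the 4 groups of a line, with a trended prior, for genes with a mean of at least 10 (15650 in PC9, 14387 in MDA231). P-values were Benjamini-Hochberg adjusted over all of them, with a threshold of 0.05. Whole reads were recovered for 100% of values within 0.001 of a read. On these reads edgeR 4.0.16 called 7211, 7694 and 3315 genes in PC9 and 6701, 297 and 188 in MDA231 (shCTL against parental, shLCN2_1 and shLCN2_2 against shCTL). DESeq2 1.42.0, other scalings, pseudocounts of 0.5 and 5, no filter, a replicate block, equal depth, single libraries left out and removal of the trend on GC content (lowess span 0.3, GENCODE 29 transcripts) were alternatives. The code was tested on simulated data. Intervals of read ratios are exact and cover counting error only.

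Members and lists were chosen with earlier results of these data known. Full values are given for called members with the largest changes, up to 4 per role group, line and comparison, and for CDH1, EPCAM, JUP, CLDN4, KRT8, KRT18 and KRT19. Genes of other lists are named from up to 3 called per list with a group mean of at least 50; regulators and markers are also named where the text turns on them. Values of 1 gene of the other lists are not reported here, though the list counts include it.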

Additional observations from a re-analysis of the deposited data

Results flagged for a closer look

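For LeptoM shCTL against parental cells, the log2 fold change in PC9 minus that in MDA231 passed the test of the difference (limma, adjusted p under 0.05 over 13392 genes) in 20 of 31 members. It was above 0 for DSC2 (0.82), PERP (0.81), CLDN7 (0.69), CLDN1 (0.60), SPINT2 (0.45), CXADR (0.41), DSG2 (0.39) and CTNNB1 (0.35). It was below 0 for SPINT1 (-2.55), JUP (-2.48), KRT81 (-2.03), CLDN4 (-1.78), KRT19 (-1.77), PPL (-1.72), KRT80 (-1.12), F11R (-0.998), CTNND1 (-0.61), TJP1 (-0.58), EPCAM (-0.51) and DSP (-0.43). SPINT1 rested on 11 and 1 MDA231 parental reads and PPL on 3 and 1, so the size of these differences is uncertain. SPINT1 was not called in MDA231.

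For shLCN2_1 against shCTL, the log2 fold change in PC9 minus that in MDA231 passed the test of the difference (limma, adjusted p under 0.05 over 13392 genes) in 19 of 31 members. It was above 0 for MARVELD2 (0.82), CXADR (0.54) and CTNNB1 (0.35). It was below 0 for KRT7 (-3.21), LSR (-2.73), EVPL (-2.48), PKP3 (-2.46), JUP (-2.32), PPL (-2.24), CLDN4 (-1.77), KRT8 (-1.54), KRT19 (-1.23), KRT81 (-1.11), CLDN7 (-1.02), KRT80 (-0.88), CGN (-0.69), KRT18 (-0.47), SPINT2 (-0.46) and DSP (-0.33).

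For shLCN2_2 against shCTL, the log2 fold change in PC9 minus that in MDA231 passed the test of the difference (limma, adjusted p under 0.05 over 13392 genes) in 4 of 31 members. It was above 0 for KRT81 (1.54), CLDN1 (1.43) and CTNNB1 (0.75). It was below 0 for CLDN4 (-1.06).

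The differences for the LCN2 hairpins were added after seeing the data, and their counts change when single libraries are left out, as given above.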

How the results depend on the processing

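Of the 96 called fold changes, 67 kept their sign and call with the GC trend removed, 24 lost the call and 5 changed sign. GC removal and GC removal with the replicate block gave 11 and 9 members called for PC9 shLCN2_1 (27 before), 17 and 16 for PC9 shLCN2_1 against shLCN2_2 (25), 23 and 23 for MDA231 shCTL against parental (14), 11 and 10 for MDA231 shLCN2_1 (2), 8 and 9 for MDA231 shLCN2_2 (1) and 16 and 15 between the MDA231 hairpins (6). GC removal gave 10 and 12 for the line differences with shLCN2_1 and shLCN2_2 (19 and 4). With it the PC9 shLCN2_1 fold changes of KRT7, SPINT1 and SPINT2 became 0.00026, 0.20 and 0.081, those of LSR and KRT18 between the PC9 hairpins 0.098 and 0.18, and the MDA231 values of KRT18 with shLCN2_1 and KRT19 with shLCN2_2 -0.086 and -0.17, with the same values under the block. A fit of the 2 groups alone gave 26 for PC9 shLCN2_2 and 4 for MDA231 shLCN2_1. Over all genes that fit called 8045 of 15650 and 384 of 14387, where the main fit called 3053 and 121. DESeq2 gave 6 and 4 for the MDA231 hairpins. Upper-quartile scaling moved MDA231 KRT18 in shCTL against parental to 0.063. Upper-quartile scaling also shifted the all-gene median, from 0.0308 to 0.128 in PC9 shLCN2_1, from 0.0442 to 0.116 in MDA231 shCTL and from 0.0216 to 0.108 between the PC9 hairpins. The cause of these changes was not tested.

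Replicate numbers share only a number. The deviations of same-numbered PC9 libraries correlated at -0.024 to 0.083, and in MDA231 at -0.59 to 0.45. With the replicate block 1 member was called for MDA231 shLCN2_1, 0 for MDA231 shLCN2_2 by limma (DESeq2 without a block called 4) and 3 between the MDA231 hairpins. With crossed numbers, added after seeing the data, the counts were 12, 14 and 12.

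With 1 library left out, members called ran from 11 to 32 for PC9 shCTL against parental, 22 to 33 for PC9 shLCN2_1 against shCTL, 2 to 19 for PC9 shLCN2_2 against shCTL, 22 to 32 for PC9 shLCN2_1 against shLCN2_2, 12 to 20 for MDA231 shCTL against parental, 0 to 4 for MDA231 shLCN2_1 against shCTL, 0 to 3 for MDA231 shLCN2_2 against shCTL, 0 to 6 for MDA231 shLCN2_1 against shLCN2_2, 14 to 22 for the line difference in shCTL against parental, 1 to 23 for the line difference in shLCN2_1 against shCTL and 1 to 9 for the line difference in shLCN2_2 against shCTL. Fold changes that changed sign ran from -0.19 to 0.17 for MDA231 shCTL against parental, KRT18, -0.0056 to 0.36 for MDA231 shCTL against parental, EPCAM, -0.043 to 0.15 for MDA231 shLCN2_1 against shCTL, KRT18, -0.11 to 0.14 for MDA231 shLCN2_1 against shCTL, EPCAM, -0.30 to 0.19 for MDA231 shLCN2_1 against shCTL, KRT19, -0.39 to 0.092 for MDA231 shLCN2_1 against shLCN2_2, KRT8 and -0.096 to 0.019 for PC9 shCTL against parental, CDH1. With 1 library left in a group, that library is assumed to vary like the others. Shares of all genes called are not given for fits with a library left out, with crossed numbers or with GC removal and the block. Nor are they given for the replicate block with either hairpin against shCTL in MDA231. Member counts in those fits cannot be set against all genes, so a changed count can reflect the whole table. The low depth of the MDA231 parental libraries limits CDH1, PPL and SPINT1.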
